A study of Mus musculus with 9 samples.

Results

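The 9 libraries of this data set were divided by 1 transcript, Ttr, which encodes transthyretin, the thyroid hormone carrier that choroid plexus epithelium secretes into cerebrospinal fluid. Ttr was expressed in CPM, its count per 1000000 counts of its library. The libraries were chosen by this value alone. A library under 200 CPM was called choroid plexus-poor and a library over 1000 CPM choroid plexus-rich, and every other gene was then compared between the classes. This rule placed 3 of the 9 libraries in the poor class and 6 of 9 in the rich class, and left none between. The tissue was the ventral hippocampus of wild-type male C57BL/6J mice that were 8 weeks old when housed, with 3 mice in each of 3 groups. Sedentary controls (SED) had neither restraint nor exercise. Susceptible mice (SUS) were held in tubes for 2 hours a day on 14 days. Mice of the third group (SUS_LE) had the same restraint and then 2 weeks of treadmill running at low intensity. The labels do not say how susceptibility was scored, and they give all libraries batch number 1.

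The choroid plexus hangs in the brain ventricles, and its temporal horn part lies against the ventral hippocampus. It is a single layer of epithelial cells, joined by tight junctions and bearing tufts of cilia, around a core of leaky capillaries and stroma. The epithelium moves sodium, bicarbonate, chloride and water to make cerebrospinal fluid, and it secretes carrier proteins and growth factors. Its main transcripts are rare in neurons and glia, so plexus that comes away with a dissected piece of hippocampus can show in the RNA of that piece. In bulk tissue, fewer cells of a type and less RNA per cell cannot be told apart.

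Library totals ran from 14172344 to 15582304 counts, and TMM scaling factors from 0.980 to 1.02. Libraries of the same group differed by more than sampling noise, with a chi-square per degree of freedom between 2.70 and 14.6, so each was counted as a separate sample. Ttr stood at 4331, 3548 and 2937 CPM in SED 1 to 3. In SUS 1 to 3 it was 27.4, 2652 and 6212 CPM. In SUS_LE 1 to 3 it was 82.7, 1491 and 58.3 CPM. The poor libraries were therefore SUS 1, SUS_LE 1 and SUS_LE 3, with a mean of 56.2 ± 27.7 CPM (SD, n = 3), and the rich libraries averaged 3529 ± 1619 CPM (SD, n = 6). The library just inside the poor class was SUS_LE 1 at 82.7 CPM and the library just inside the rich class was SUS_LE 2 at 1491 CPM. The classes were unevenly spread over the treatment groups: 0 of 3 SED, 1 of 3 SUS and 2 of 3 SUS_LE libraries were poor. The comparison within SUS thus set SUS 1 against SUS 2 and 3, the comparison within SUS_LE set SUS_LE 1 and 3 against SUS_LE 2, and these share no library.

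The label was checked against a list of 50 choroid plexus epithelial genes. The list's share of all counts was 0.804%, 0.669% and 0.569% in SED 1 to 3 and 0.499%, 1.08% and 0.309% in the rich SUS 2, SUS 3 and SUS_LE 2. It was 0.0764%, 0.0903% and 0.0870% in the poor SUS 1, SUS_LE 1 and SUS_LE 3. Ttr, which made the classes, was 48.3% to 57.7% of the list's counts in the rich libraries. Without Ttr the share was 0.160% to 0.456% in the rich libraries and 0.0737%, 0.0820% and 0.0812% in the poor ones, so the classes still did not overlap. Of the 50 genes 47 passed the filter on low counts, and Otx2os1, Slco1a5 and Cldn3 did not. Fitted poor over rich values were below 0 for 47 of 47 tested members, beside 48.8% of all 16106 tested genes. Their median log2 value was −2.05, beside 0.004 over all tested genes. Every poor library lay below every rich library in 41 of the 47, Ttr included, and 3.17% of all tested genes showed that pattern. Some members had all 3 poor libraries under the filter minimum, about 0.689 CPM. Among them were Slc4a5, Kcne2, Aqp1, Trpv4, Cldn2, Tmem72, Folr1, Wfdc2, Steap1, Krt8 and Krt18. These were tested only because the rich libraries were high, so their direction and their folds below are no independent support for a difference. Since Ttr made the classes and its fellow epithelial genes come from the same libraries, these values describe the split and are given with no test.

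**Figure D1:**
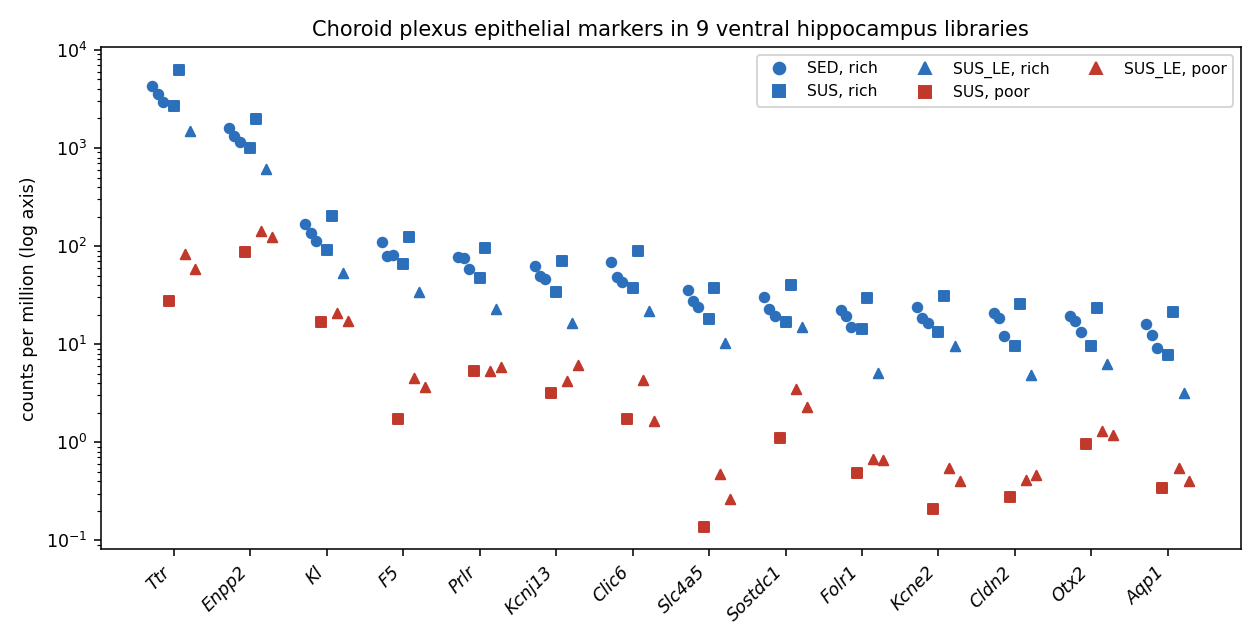
CPM on a log axis of 14 choroid plexus epithelial markers in the 9 libraries. Symbols show the treatment group, blue the 6 rich and red the 3 poor libraries. The red symbols lie below the blue ones for each marker shown, with Ttr from 27.4 to 82.7 CPM in the poor and from 1491 to 6212 CPM in the rich libraries. CPM is not divided by transcript length, so heights are to be compared within a gene only.

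The epithelial genes differed in how far apart the classes lay. The mean of the rich libraries was over 10 times that of the poor ones for 21 of the 47 members, between 2 and 10 times for 17, and at most 2 times for 9. The apical ion transport genes were among the first. Slc4a5, an electrogenic sodium bicarbonate cotransporter, was at 0.138, 0.477 and 0.267 CPM in SUS 1, SUS_LE 1 and SUS_LE 3, against 10.4 to 37.6 CPM in the rich libraries, an 87.1-fold difference in means. Kcne2, a potassium channel subunit, was 48.8-fold lower on the same measure, at 0.207 to 0.545 CPM in the poor and 9.69 to 30.7 CPM in the rich libraries. Aqp1, the apical water channel, was at 0.345 to 0.545 CPM against 3.21 to 21.4 CPM, a 27.0-fold difference. Kcnj13, an inwardly rectifying potassium channel, differed 10.3-fold. Smaller ratios were found for Slc4a2, the basolateral anion exchanger, at 2.82-fold, and for the carbonic anhydrases Car14 at 2.28-fold and Car12 at 2.17-fold. Slc4a2 was still at 14.5 to 17.8 CPM in the poor libraries, Car12 at 25.6 to 27.9 CPM and Car14 at 3.86 to 5.11 CPM, all below the rich range.

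Secreted proteins and carriers showed the same breadth. Enpp2, the enzyme autotaxin that makes lysophosphatidic acid, was at 87.6, 142 and 125 CPM in the poor libraries and at 614 to 1971 CPM in the rich ones, 10.8-fold apart in means. Kl, the klotho coreceptor that is also shed into the fluid, was at 17.0, 20.6 and 17.1 CPM against 53.4 to 201 CPM, which is 6.98-fold. F5, coagulation factor V, differed 24.8-fold and Sostdc1, a secreted BMP and Wnt antagonist, 10.5-fold. Igf2, a growth factor that meninges and vessels also make, did not separate the classes: its poor libraries were at 125, 130 and 139 CPM, while SUS_LE 2, a rich library, was at 121 CPM and the other rich libraries ran from 145 to 374 CPM. The classes overlapped in 6 of 47 members, Slc13a4, Perp, Ctsd and Slc5a5 among them. Slc5a5, the iodide transporter, was at 17.6 to 22.9 CPM in the poor and 19.2 to 27.6 CPM in the rich libraries.

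Junction, receptor and regulatory genes completed the list. Cldn2, the claudin that lets sodium and water through the epithelial tight junction, was 39.8-fold lower in the poor class, and Cldn1, which other barriers share, 2.74-fold. The keratins Krt8 and Krt18, which mark simple epithelia, were 11.3-fold and 16.1-fold lower. Among receptors, Folr1, which carries folate across the plexus, differed 29.0-fold, and Prlr, the prolactin receptor, 11.4-fold. Htr2c, the serotonin receptor that neurons express as well, was at 37.0 to 51.5 CPM in the poor and 66.5 to 98.2 CPM in the rich libraries, 1.77-fold in means. Otx2, the homeobox factor that keeps epithelial identity, was at 0.965 to 1.29 CPM in the poor and 6.29 to 23.6 CPM in the rich libraries, a log2 value of −3.10.

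The rich libraries were not alike, and the epithelial genes ranked them in nearly one order. SUS 3 was the highest rich library for 46 of the 46 tested members other than Ttr, and SUS_LE 2 the lowest for 43. The complete order of the 6 rich libraries was that of Ttr for 28 of the 46. The highest rich library exceeded the lowest by a median of 3.21 times (range 1.38 to 7.51), and by 4.17 times for Ttr. Among the poor libraries SUS 1 was the lowest of all 9 for 29 members. The difference within SUS was larger than that within SUS_LE for 46 of the 47 members, with medians of −3.17 and −1.13 log2. The rich reference was higher within SUS (2652 and 6212 CPM of Ttr) than within SUS_LE (1491 CPM), and its part in that difference was not tested.

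Across all genes the class was fitted in edgeR with treatment group as a covariate, by a quasi-likelihood F test with p-values adjusted over 16106 genes. The p-values measure association with a split of these same libraries, which the study did not design, and only SUS and SUS_LE hold both classes. At an adjusted p under 0.05, 27 genes (0.168%) were called, 25 lower (0.155%) and 2 higher (0.0124%) in the poor libraries. At an unadjusted p under 0.05 there were 1477 genes, 9.17% of those tested. Of the 27 called genes 1, Krt8, was on the epithelial list. The number of the 47 epithelial genes called moved with the method: it was 32 in DESeq2, which called 107 genes in all (0.664%), 0 in limma voom, which called 6 (0.0373%), 27 in edgeR without its robust step and 35 with log2 Ttr as a continuous term. Since the split was made on an epithelial gene, nothing is read from these counts. All 25 that fell had every poor library below every rich one, beside 3.17% of all tested genes, a pattern that the fit favours. A log2 value below −1 was found for 20 of them. The count depended on 1 library above all: without SUS 1 it was 2, with none of the 27 among them, and without SUS_LE 2 it was 158. It was 107 without SUS 3, 55 without SUS 2, and 60 and 45 without SUS_LE 3 and SUS_LE 1. It was 8, 7 and 8 without SED 1, SED 2 and SED 3.

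Of the 24 genes that fell and were not on the epithelial list, 5 fell by less than 1 on the log2 scale and the rest by more. In all 24 each poor library lay below the rich libraries of its own group, beside 14% of all tested genes. The fit that chose these genes favours that pattern. Itpripl1, an inositol trisphosphate receptor-interacting protein-like gene, was at 0.758, 0.817 and 0.733 CPM in SUS 1, SUS_LE 1 and SUS_LE 3. Its rich libraries were at 5.22, 5.61 and 3.86 CPM in SED, 2.70 and 4.69 CPM in SUS 2 and 3, and 3.47 CPM in SUS_LE 2. The groups did not overlap, and the log2 value was −2.19 (SE 0.30, edgeR adjusted p = 0.00408). Epn3, an epsin of the endocytic coat, was at 1.59, 1.57 and 1.27 CPM against 3.72 to 9.95 CPM, a log2 value of −1.84 (SE 0.26, edgeR adjusted p = 0.0059). Pla2g5, a secreted phospholipase, was at 0.138, 0.341 and 0.400 CPM against 1.35 to 5.53 CPM, a log2 value of −3.01 (SE 0.48, edgeR adjusted p = 0.0247). All its poor values lay under the minimum of the filter on low counts, so it was tested only because the rich libraries were high. The lowest rich library was SUS 2 for Itpripl1 and SUS_LE 2 for Epn3 and Pla2g5.

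Several called genes had few or no counts in the poor class. In 11 of the 25 that fell, all 3 poor libraries lay under the minimum of the filter on low counts, about 0.689 CPM. They were Tmprss11a, Lmx1a, Slc16a8, Large2, Six3os1, Pla2g5, Tns4, Rd3, Krt8, 2900040C04Rik and Gm534. These genes were tested only because the rich libraries were high, so their calls are no independent support for a difference. Of the 27 called genes 12 had at least 1 CPM in all 9 libraries, and with that as the filter 1 gene was called. Tmprss11a, a membrane serine protease, had 1 count in the 3 poor libraries together and 161 in the 6 rich ones, a rich over poor ratio of 81.3 after allowing for library totals (95% interval 14.4 to 3231, which covers counting error only). Lmx1a, a LIM homeobox factor of the roof plate and cortical hem from which choroid plexus arises, had 2 against 121 counts, a ratio of 30.6 (8.28 to 255). Slc16a8, a lactate transporter of retinal pigment and choroid plexus epithelium, had 0 against 86 counts. Set against a floor of 3 counts over the poor class, it was at least 14.5-fold higher in the rich class, and the lower 95% limit of the ratio from counting error in both classes was 11.5. Large2, a glycosyltransferase that extends sugars on dystroglycan, had 3 against 119 counts, a ratio of 20.0 (6.69 to 98.5). Six3os1 had 1 against 90 counts, a ratio of 45.5 (7.95 to 1815). It is antisense to Six3, and since the strand setting of the counting is not given in the sources used here, reads of the pair cannot be told apart. Six3 itself, an eye and forebrain homeobox gene, was at 0 to 0.409 CPM in the poor and 1.03 to 3.36 CPM in the rich libraries, with a log2 value of −2.76 that missed the threshold (edgeR adjusted p = 0.186). DESeq2 called Six3 lower, but its 3 poor libraries also lay under the filter minimum. The long noncoding RNAs 2900040C04Rik (log2 −3.66, edgeR adjusted p = 0.0256) and Gm534 (log2 −4.14, edgeR adjusted p = 0.0305) also fell.

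**Figure D2:**
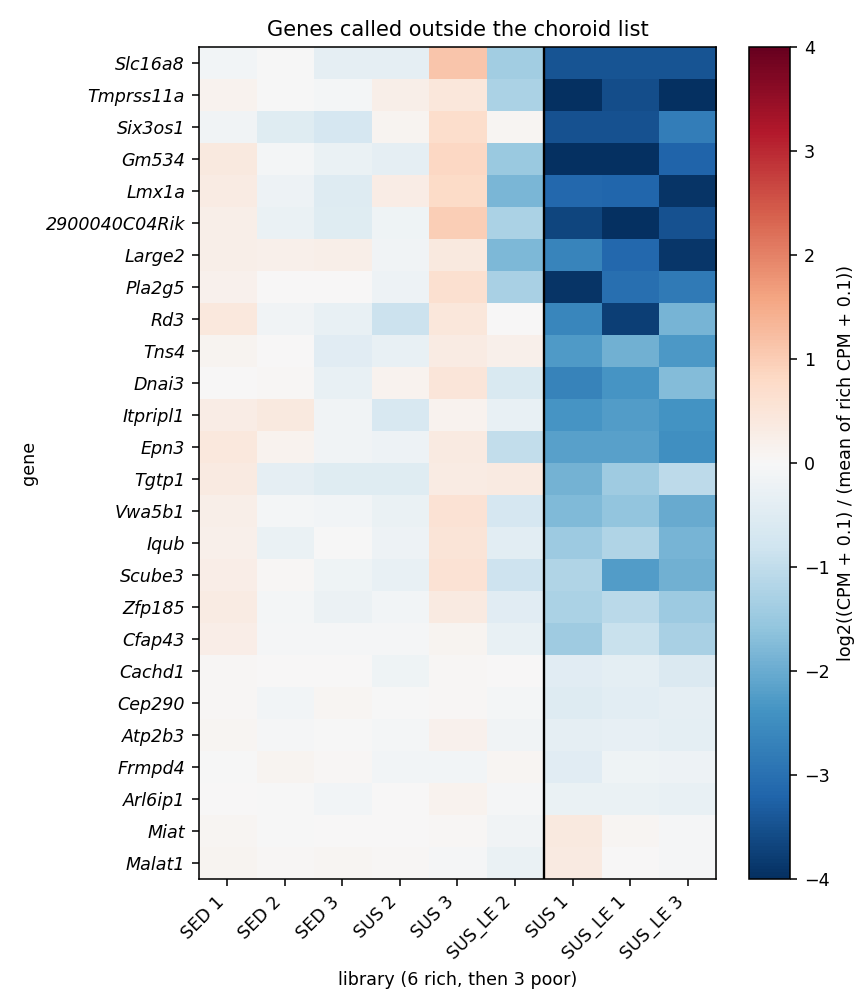
Each of the 26 genes called outside the epithelial list (vertical axis) in each library (horizontal axis, 6 rich then 3 poor), coloured by log2 of CPM + 0.1 over the mean of the rich libraries + 0.1. Values under −4 take the darkest blue. The 24 upper genes are blue in the 3 poor libraries, and within the rich libraries SUS 3 is the highest for 17 of the 24 and SUS_LE 2 the lowest for 15. Malat1 and Miat, at the bottom, are higher in SUS 1.

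The rich libraries also differed from one another for these genes. SUS 3 was the highest rich library for 17 of the 24 and SUS_LE 2 the lowest for 15, and the highest exceeded the lowest by a median of 2.31 times. The rest did not follow Ttr in this way: Tgtp1 was highest in SUS_LE 2, and Itpripl1 was highest in SED 2 and lowest in SUS 2. The share of all tested genes with these extremes was not computed, so nothing is read from the counts. Among the other genes that fell, Tns4, a tensin of adhesion sites, fell by 2.83 on the log2 scale, Scube3, a secreted signalling protein, by 1.38, Vwa5b1 by 1.55 and Zfp185, an actin-associated LIM protein, by 1.11. Rd3, known as a retinal guanylate cyclase regulator, fell by 2.87. Tns4 and Rd3 were tested only because the rich libraries were high, since all their poor libraries lay under the filter minimum. Tgtp1, an interferon-induced GTPase, fell by 1.74 (SE 0.30, edgeR adjusted p = 0.0256). It was at 0.965, 1.36 and 1.80 CPM in the poor and 2.70 to 4.88 CPM in the rich libraries. Its near-identical neighbour Tgtp2 can share reads with it, so the Tgtp1 value is uncertain. Tgtp2 had a log2 value of −1.54 (edgeR adjusted p = 0.533).

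A few called genes fell by small amounts from high levels. Atp2b3, a plasma membrane calcium pump, was at 282, 285 and 274 CPM in the poor and 327 to 406 CPM in the rich libraries, a log2 value of −0.31 (SE 0.06, edgeR adjusted p = 0.043). Arl6ip1, a shaper of the endoplasmic reticulum, was at 133, 135 and 131 CPM against 149 to 177 CPM, a log2 value of −0.28. Cachd1, which resembles a calcium channel subunit, was at 26.9, 28.1 and 24.5 CPM against 32.3 to 38.4 CPM, a log2 value of −0.45. The classes did not overlap in any of these 3 genes. Frmpd4, a postsynaptic scaffold protein, fell by 0.29 on the log2 scale.

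Motile cilia genes had mostly lower values in the poor libraries, and 1 of them passed the test. These genes build the beating axoneme, with its dynein arms, radial spokes and central pair, in ependymal cells and in choroid plexus epithelium. Of 62 listed genes 59 were tested, and 57 had values below 0, beside 48.8% of all tested genes. In edgeR 1 of the 59, Cfap43, passed the adjusted threshold, beside 0.168% of all tested genes, and 30 had an unadjusted p under 0.05, beside 9.17%. limma voom called 0 of the 59. DESeq2 called 7, beside 0.664% of all tested genes: Cfap43, Cfap44, Dnah6, Dnah11, Drc7, Foxj1 and Mlf1. In 26 of the 59 every poor library lay below every rich one (3.17% of all tested genes). The median log2 value was −0.62, with −0.86 within SUS and −0.37 within SUS_LE. Without SUS 1 the median was −0.34. The summed level of the list was 323, 387 and 362 CPM in the poor libraries and 432 to 560 CPM in the rich ones. Summed over each list, cilia and epithelial genes were both lower in the 3 poor libraries than in any rich one, and how much of the cilia signal came from plexus and how much from ependyma was not tested.

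The master regulator Foxj1, which switches on the motile cilia program, was at 3.03, 4.50 and 2.40 CPM in SUS 1, SUS_LE 1 and SUS_LE 3 and at 5.95 to 10.9 CPM in the rich libraries. Its log2 value of −1.26 (SE 0.26) missed the threshold in edgeR (adjusted p = 0.107), and the classes did not overlap. Cfap43, a protein that tethers the inner dynein arms, was at 2.83, 4.09 and 3.06 CPM against 6.23 to 9.17 CPM, a log2 value of −1.10 (SE 0.19, edgeR adjusted p = 0.0256). Dnai3, an axonemal dynein intermediate chain that the list did not hold, fell by 2.20 (SE 0.34, edgeR adjusted p = 0.00905), from 2.31 to 5.04 CPM in the rich to 0.483, 0.613 and 0.999 CPM in the poor libraries. Iqub, a radial spoke-associated protein, fell by 1.38 (SE 0.26, edgeR adjusted p = 0.040). Mlf1 had a log2 value of −1.64 (edgeR adjusted p = 0.0669), Lrrc23, of the radial spoke head, −1.05 (edgeR adjusted p = 0.0828) and Rsph4a, a spoke head protein, −0.64 (edgeR adjusted p = 0.107). These last genes had every poor library below every rich one without passing the threshold.

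Besides Foxj1, 4 genes were listed as markers of ependymal cells, which line the ventricles. Mia had a log2 value of −2.12 (edgeR adjusted p = 0.129), with 0.207, 0.204 and 0.333 CPM in the poor and 0.772 to 1.76 CPM in the rich libraries. All its poor values lay under the minimum of the filter on low counts, about 0.689 CPM. Mia was thus tested only because the rich libraries were high, and its value is no independent support for a difference. Ccdc153 was at 2.21, 2.79 and 3.06 CPM in the poor and 2.64 to 4.37 CPM in the rich libraries, a log2 value of −0.27 (edgeR adjusted p = 0.808). Tmem212 ranged from 0.133 to 2.38 CPM in the poor and from 0.491 to 1.62 CPM in the rich libraries, and Rarres2 from 3.86 to 6.74 and from 4.87 to 6.18 CPM. The classes overlapped in Ccdc153, Tmem212 and Rarres2, whose edgeR adjusted p values were 0.808, 0.854 and 0.984.

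The promoters of the cilia genes were read because values of the members ran mostly in 1 direction. Windows of 250 bases before the gene start were taken from RefSeq (GRCm38.p6), matched by symbol, for 48 of the 59 tested cilia genes and 12182 of the 16106 tested genes. The letters GTTGCCAT, a core of the X-box that RFX factors bind at ciliary genes, were searched on both strands, with ATGGCAAC as the reverse complement. They occurred in 5 of 48 cilia windows (10.4%), in 119 of 12182 windows of all tested genes (0.977%) and in 0 of 38 windows of the epithelial list. The letters GGATTA, bound by OTX factors, with TAATCC as the reverse complement, were searched separately, with overlaps allowed. They were in 2 of 38 epithelial windows (5.26%) and in 5.18% of all windows. A match describes the letters only. The 3 windows below belong to the cilia genes with a match and the smallest p, Mlf1 (chr3:67373847-67374096, plus strand), Lrrc23 (chr6:124779728-124779977, minus strand) and Cfap44 (chr16:44394549-44394798, plus strand). They run 5′ to 3′ toward the gene start, with the match in capitals, to show where the letters lie.
Mlf1: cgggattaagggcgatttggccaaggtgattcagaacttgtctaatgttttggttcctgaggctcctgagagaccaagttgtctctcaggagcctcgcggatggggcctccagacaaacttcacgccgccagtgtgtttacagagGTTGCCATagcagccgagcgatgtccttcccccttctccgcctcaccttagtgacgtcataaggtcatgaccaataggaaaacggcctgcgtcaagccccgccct
Lrrc23: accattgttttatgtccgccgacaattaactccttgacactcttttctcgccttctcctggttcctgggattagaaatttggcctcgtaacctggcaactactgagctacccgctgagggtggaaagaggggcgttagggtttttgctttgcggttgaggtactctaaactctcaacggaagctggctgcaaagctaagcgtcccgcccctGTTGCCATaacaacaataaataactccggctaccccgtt
Cfap44: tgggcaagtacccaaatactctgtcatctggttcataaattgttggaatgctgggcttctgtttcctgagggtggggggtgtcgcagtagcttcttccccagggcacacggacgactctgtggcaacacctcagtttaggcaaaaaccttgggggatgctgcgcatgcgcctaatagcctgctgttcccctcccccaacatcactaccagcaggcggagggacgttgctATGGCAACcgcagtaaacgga
In the Mlf1 and Lrrc23 windows the match reads GTTGCCAT, and in the Cfap44 window ATGGCAAC. Cfap44, an axonemal protein that pairs with Cfap43, had a log2 value of −0.80 (SE 0.19, edgeR adjusted p = 0.175).

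Cilium genes outside the motile axoneme differed less. The transition zone and basal body list, which holds the gate at the base of every cilium, had 29 of 42 values below 0 (48.8% of all tested genes) and a median of −0.09, and 1 gene was called in edgeR (0.168% of all tested genes). That gene was Cep290, a scaffold of the gate, at 21.7, 22.9 and 24.2 CPM in the poor and 28.8 to 33.1 CPM in the rich libraries, a log2 value of −0.42 (SE 0.09, edgeR adjusted p = 0.0493). Genes of intraflagellar transport and the BBSome, the cargo carriers of the ciliary shaft, had 27 of 39 values below 0, a median of −0.05 and no edgeR call, with 2 genes at an unadjusted p under 0.05 and none called by DESeq2 or limma voom. Primary cilium membrane genes had 16 of 34 values below 0 and a median of 0.02, and 2 had an unadjusted p under 0.05, with none called by edgeR, DESeq2 or voom. Arl13b, a GTPase of the ciliary membrane, was at 6.204, 8.44 and 8.46 CPM in the poor and 7.27 to 10.3 CPM in the rich libraries (log2 −0.14, edgeR adjusted p = 0.845). Adcy3, the adenylyl cyclase of neuronal cilia, was at 44.2, 45.2 and 44.97 CPM against 43.3 to 50.0 CPM (log2 −0.03, edgeR adjusted p = 0.947).

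**Figure D3:**
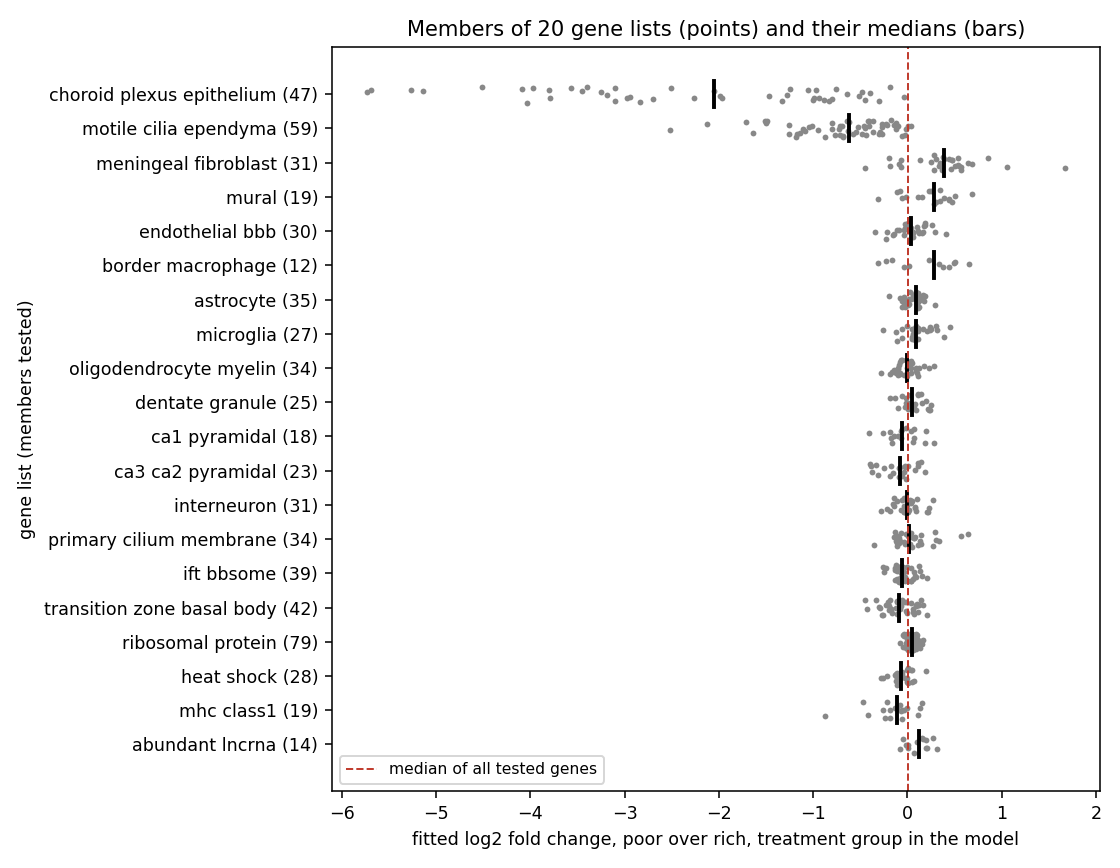
Fitted log2 fold change, poor over rich with treatment group in the model (horizontal axis), of the tested members of 20 gene lists (points) and the median of each list (bar). The dashed line is the median of all tested genes, 0.004. The choroid plexus list (median −2.05) and the motile cilia list (−0.62) extend to the left, and the meningeal list (0.39) lies to the right of the line.

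Transcripts of the meninges and of vessel walls had mostly higher values in the poor class, none of them called. Meningeal fibroblasts form the membranes that cover the brain surface. Of 31 tested genes 25 had values above 0 (51.2% of all tested genes did), with a median of 0.39, 0.27 within SUS and 0.65 within SUS_LE. The median was 0.16 without SUS_LE 2, with 18 of 31 above 0, and 0.24 without SUS 2. It was 0.66 without SUS 1 and 0.73 without SUS 3. edgeR, DESeq2 and limma voom called 0 of the 31, and 4 had an unadjusted p under 0.05 in edgeR, 1 of them, Ccn3, with a value below 0. Every poor library was above every rich one in 4 genes (0.993% of all tested genes). Crabp2, a retinoic acid carrier, was at 2.34, 3.13 and 2.73 CPM in the poor and 0.554 to 2.17 CPM in the rich libraries, a log2 value of 1.05 (SE 0.36, edgeR adjusted p = 0.357). Slc47a1, an organic cation exporter, was at 2.69, 3.00 and 4.86 CPM against 0.277 to 2.31 CPM, a log2 value of 1.67 (edgeR adjusted p = 0.517). SUS 2 was the lowest library for both genes and for the summed list, at 840 CPM against 1120 to 1745 CPM in the other 8. Collagen genes overlapped: Col1a1 was at 20.4, 18.0 and 21.1 CPM in the poor and 8.72 to 22.5 CPM in the rich libraries.

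Mural cells of vessel walls had 14 of 19 values above 0 and a median of 0.28, with 3 genes at an unadjusted p under 0.05 and none called by edgeR, DESeq2 or voom. The smallest adjusted p was that of Vtn, vitronectin, at 56.2, 66.5 and 59.6 CPM in the poor and 40.1 to 57.2 CPM in the rich libraries (log2 0.30, edgeR adjusted p = 0.288). Endothelial genes of the blood-brain barrier had a median of 0.03, and 18 of 30 were above 0, with 5 at an unadjusted p under 0.05 and none called by the 3 tools. Choroid plexus stroma, listed apart from the epithelium, had 6 of 11 values above 0 and a median of 0.18. DESeq2 called 1 of the 11 lower, Lepr, and 1 higher, Ptn, while edgeR and limma voom called none. Its summed level was 481, 451 and 531 CPM in the poor and 418 to 509 CPM in the rich libraries, so that the classes overlapped in the stromal list while they did not overlap in the summed epithelial list.

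Astrocyte and microglial genes had mostly values above 0. Of 35 astrocyte genes 27 were above 0, with a median of 0.09 and 4 at an unadjusted p under 0.05. In 13 of the 35 each poor library lay above the rich libraries of its own group, beside 11.7% of all tested genes. Among 27 microglial genes 21 had values above 0, with a median of 0.09 and 5 at an unadjusted p under 0.05, and edgeR, DESeq2 and limma voom called none. Cx3cr1, the fractalkine receptor of microglia, was at 42.8, 34.1 and 41.0 CPM in the poor and 29.0 to 34.2 CPM in the rich libraries (log2 0.39, SE 0.09, edgeR adjusted p = 0.0851). Ctss, a lysosomal protease of microglia, had a log2 value of 0.31 (edgeR adjusted p = 0.133). Aqp4 (log2 −0.04), Gfap (0.13) and P2ry12 (−0.11) had edgeR adjusted p values of 0.918, 0.583 and 0.734.

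The medians of neuronal and myelin lists stayed near 0. The median log2 value was 0.05 for 25 dentate granule cell genes, −0.06 for 18 CA1 and −0.08 for 23 CA3 and CA2 pyramidal cell genes, −0.01 for 31 interneuron genes and −0.01 for 34 oligodendrocyte genes. edgeR and limma voom called none of them. In edgeR 1, 6, 4, 5 and 2 genes in that order had an unadjusted p under 0.05, beside 9.17% of all tested genes. Of the 18 CA1 genes 11 had values below 0 and 7 above. DESeq2 called 1, Plagl1, of the CA3 and CA2 list (edgeR log2 −0.39, adjusted p = 0.262). Mbp, the myelin basic protein gene, was at 984, 1261 and 963 CPM in the poor and 1040 to 1295 CPM in the rich libraries (log2 −0.08, edgeR adjusted p = 0.857). Fos, an activity-induced gene, had a log2 value of −0.27 (edgeR adjusted p = 0.760) and Fkbp5, a glucocorticoid target, −0.07 (edgeR adjusted p = 0.938).

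Genes that handle thyroid hormone and retinoids, ligands that the plexus passes to the brain, had values in both directions, and none was called in edgeR. Among 19 thyroid hormone genes, Ttr included, 6 had an unadjusted p under 0.05 in edgeR, beside 9.17% of all tested genes. DESeq2 called 2, Ttr and Slco1c1, beside 0.664% of all tested genes. Ttr made the classes and Slco1c1 is on the epithelial list, so nothing is read from these counts. Slco1c1, a thyroxine transporter of barrier cells, was at 25.4, 30.4 and 28.3 CPM in the poor and 35.2 to 48.6 CPM in the rich libraries, a log2 value of −0.48. Slc7a5, an amino acid transporter that also takes thyroid hormone, was at 60.6, 61.6 and 53.6 CPM against 42.0 to 51.8 CPM, a log2 value of 0.29 (edgeR adjusted p = 0.197). The classes were apart in both genes, in opposite directions. Among 17 retinoid genes 3 had an unadjusted p under 0.05, and DESeq2 called 1, Rdh5. Nothing is read from that call, since Rdh5 is also an epithelial gene. Rdh5, a retinol dehydrogenase on the epithelial list, was at 0.551, 1.09 and 0.666 CPM against 2.76 to 8.75 CPM, a 7.55-fold difference in means. Stra6, the retinol uptake receptor, was at 8.07, 6.33 and 7.66 CPM against 8.73 to 12.3 CPM (log2 −0.33, edgeR adjusted p = 0.508). Lepr, the leptin receptor, listed with plexus stroma, was at 3.72, 4.90 and 4.53 CPM against 6.74 to 13.3 CPM (log2 −0.95, edgeR adjusted p = 0.327). DESeq2 called Lepr lower.

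The 2 genes called higher in the poor class were Malat1 and Miat, long noncoding RNAs that stay in the nucleus. Malat1 was at 9566 CPM in SUS 1 against 7682 and 7209 CPM in SUS 2 and 3, and at 7516 and 7234 CPM in SUS_LE 1 and 3 against 6151 CPM in SUS_LE 2. In SED it was at 8099, 7677 and 7772 CPM, so the classes overlapped over the 9 libraries and were apart only within each restrained group. The log2 value was 0.32 (SE 0.06, edgeR adjusted p = 0.0256). With no treatment group term in the model it was 0.14 (edgeR adjusted p = 0.776). Miat was at 469 CPM in SUS 1 against 359 and 368 CPM, and at 376 and 348 CPM against 322 CPM in SUS_LE, a log2 value of 0.27 (SE 0.06, edgeR adjusted p = 0.0467). Of 14 abundant long noncoding RNAs tested, 11 had values above 0, with a median of 0.13. Without SUS 1 neither gene was called (edgeR adjusted p = 0.957 for Malat1 and 0.996 for Miat).

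**Figure D4:**
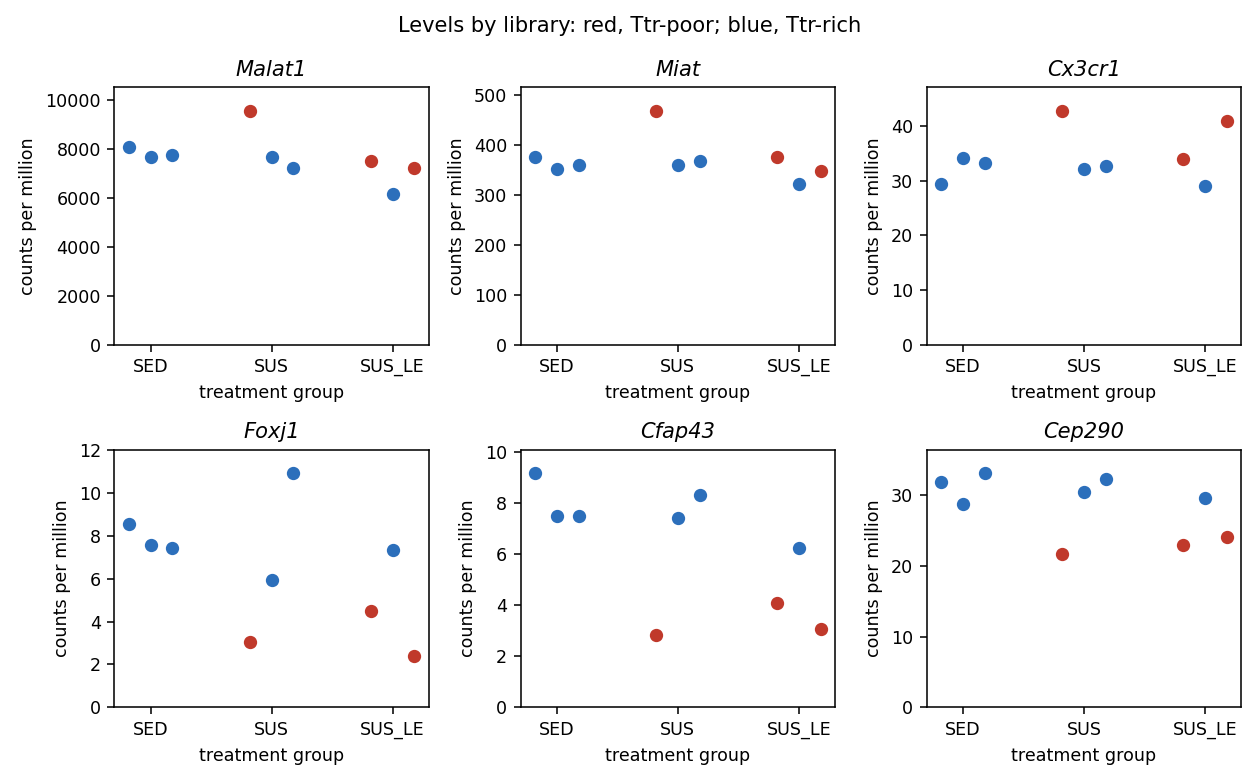
CPM of 6 genes by treatment group, 1 point a library, red for poor and blue for rich, with each vertical axis starting at 0. Malat1, Miat and Cx3cr1 are higher in the red libraries of SUS and SUS_LE than in the blue ones of the same group. Foxj1, Cfap43 and Cep290 are lower there and have no red point above a blue one.

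Other genes ranked highly by p in this direction did not pass the threshold in edgeR. They included Adamtsl3, Gm33649, Gm14391, Gm51806, Syt7, Ptn and Snhg11 besides Cx3cr1 and Ctss, with adjusted p values from 0.0851 to 0.159. Syt7, a synaptotagmin of slow vesicle release, was at 399, 335 and 331 CPM in the poor and 294 to 332 CPM in the rich libraries (log2 0.22, edgeR adjusted p = 0.129). Ribosomal protein genes had 66 of 79 values above 0 and a median of 0.05, and 0 were called by edgeR, DESeq2 or voom, with 8 at an unadjusted p under 0.05. In 27 of the 79 each poor library lay above the rich libraries of its own group, beside 11.7% of all tested genes. Fitted values rose with GC content over 14697 genes matched to GENCODE M21 (Spearman rho 0.209 across genes), with rho 0.266 for the difference within SUS and 0.002 within SUS_LE. Genes are not independent replicates, and the part of base composition in the values above was not tested.

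Because the SUS and SUS_LE differences come from separate libraries, they were set side by side. Over all tested genes 52.8% had the same sign in both, with a Pearson r of 0.28 and a Spearman rho of 0.10 across genes. Without the epithelial list 52.7% did, with a Pearson r of 0.19 and a Spearman rho of 0.098. Of 59 motile cilia genes 51 (86.4%) had the same sign. In 37 of them every poor library lay below the rich libraries of its own group, in SUS and in SUS_LE alike, beside 14% of all tested genes. For the epithelial list that count was 42 of 47. The 26 genes called outside the list had the same sign in both groups, which the fit that chose them favours. Mlf1 differed by −1.50 within SUS and −1.48 within SUS_LE, Foxj1 by −1.36 and −1.12, and Tgtp1 by −1.75 and −1.56. Larger gaps between the groups were seen for the epithelial genes: Ttr differed by −7.19 and −4.42, Slc4a5 by −6.56 and −4.41 and Enpp2 by −3.98 and −2.20.

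**Figure D5:**
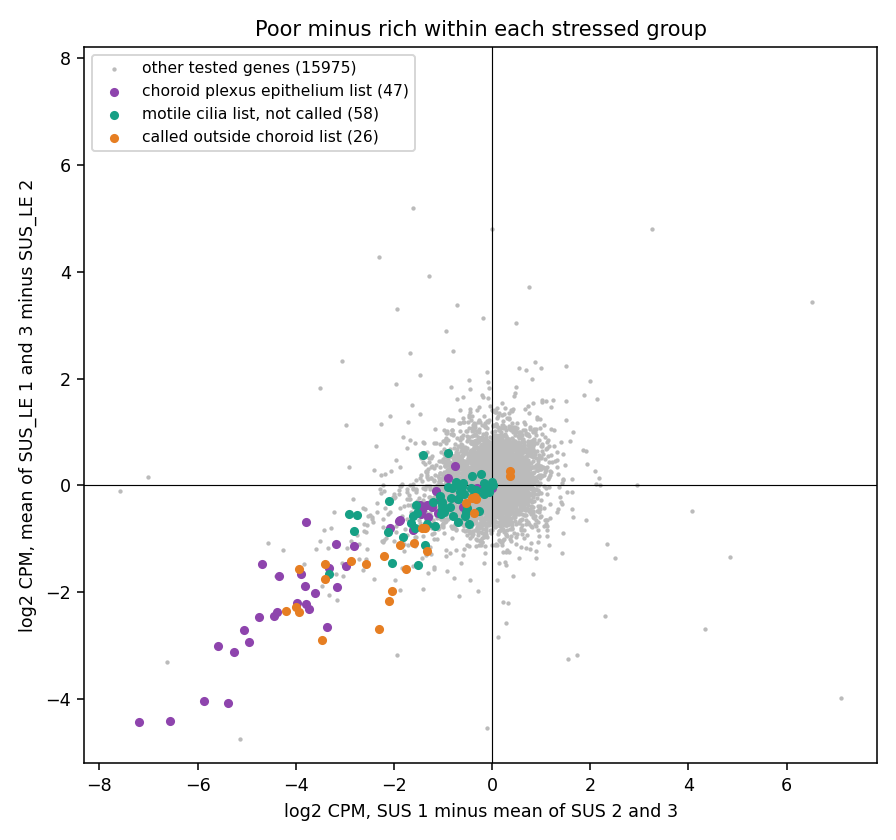
Differences in log2 CPM (prior count of 2) between poor and rich libraries for the 16106 tested genes, within SUS (horizontal axis, SUS 1 minus the mean of SUS 2 and 3) and within SUS_LE (vertical axis, mean of SUS_LE 1 and 3 minus SUS_LE 2). Purple marks the 47 epithelial genes, green the motile cilia genes not called and orange the 26 genes called outside the epithelial list. The coloured genes spread toward the lower left, while the grey points of the other genes spread around 0, where 52.8% of all genes share a sign.

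Whether the class difference itself differed between SUS_LE and SUS was tested by an interaction term in edgeR, with one mean for each group and class. SUS 1 was the only poor SUS library and SUS_LE 2 the only rich SUS_LE library, so their spread was not measured and was taken from the other cells, and each call below rests on 1 of these libraries. Of 16106 genes 2 (0.0124%) passed the adjusted threshold and 1221 (7.58%) had an unadjusted p under 0.05. None was on the epithelial or motile cilia lists. Pcdhgb1, a clustered protocadherin, was at 9.03 CPM in SUS 1 against 19.1 and 22.1 CPM in SUS 2 and 3, and at 21.4 and 19.0 CPM against 17.7 CPM in SUS_LE. The difference of the class effects was 1.37 log2 (SE 0.22, edgeR adjusted p = 0.0285). Genes of this cluster share their last exons, so reads can be split among them and the value is uncertain. Ndufb4b, a copy of a respiratory chain subunit gene, was at 0 CPM in SUS_LE 2 and at 5.65 and 4.06 CPM in SUS_LE 1 and 3, and at 1.31 CPM in SUS 1 against 3.53 and 5.25 CPM in SUS 2 and 3 (edgeR adjusted p = 0.000124). Reads of Ndufb4 and Ndufb4c may be shared with it, and no fold is given against the library at 0. The next genes, Moap1, Gm20604, Nlgn4l and Gm45935, each had an edgeR adjusted p of 0.315. The test could not be run without SUS 1 or without SUS_LE 2, the only library of its cell in each case.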

How the data were processed

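Total RNA of ventral hippocampus was sequenced in 9 mice, 1 library each, and the authors deposited whole-number read counts for 40213 gene symbols per library. Per the submitters' processing notes, fastp, STAR, Salmon and the GRCm39 build were used, with no versions. Strand setting, annotation and rounding are not given in the sources used here. File headers number the SUS_LE libraries differently from the labels, whose numbers were used. The lowest total was 14172344 counts, and 0 counts in a library allow up to 3.

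The counts were analysed with edgeR 4.0.16 under R 4.3.3, and alternatives with DESeq2 1.42.0 and limma 3.58.1. edgeR's expression filter kept 16106 genes with 99.9% of counts. A robust quasi-likelihood fit with TMM factors held treatment group and class (5 residual degrees of freedom), and a second fit 1 mean per group and class cell (4). The threshold was a Benjamini-Hochberg adjusted p of 0.05, and log2 CPM used a prior count of 2. The fits were tested on simulated data. Members and the 41 gene lists were chosen with earlier results of these data known. Genes named were the first 12 by p, higher and lower apart, with mean log2 CPM above 0 and the same sign within SUS and SUS_LE, up to 4 per list by p, the epithelial list, 6 for the difference between groups, list markers and 8 genes of cilia, glia and stress. Other called genes, and list members shown for their markers or motifs, were named after their values were seen. Some genes are not reported here. Alternatives were DESeq2, limma voom, other scaling and filters, no robust step, a replicate block, other terms or samples, and leaving out each library.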

Additional observations from a re-analysis of the deposited data

Results flagged for a closer look

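Among 97 named genes looked at in the 6 rich libraries, 3 had a library far from the rest, and chance gives about 1 in 20. Cachd1 was at 32.3292 CPM in SUS 2 and at 36.8 to 38.4 CPM in the other 5. Slc16a8 was at 2.23879 CPM in SUS 3 and at 0.321 to 0.983 CPM in the others. Snhg11, a long noncoding RNA, was at 1468.27 CPM in SUS_LE 2 and at 1594 to 1659 CPM in the others.

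In 2 genes the interaction test of edgeR, SUS_LE against SUS, passed its threshold. SUS 1 alone was poor in SUS and SUS_LE 2 alone rich in SUS_LE, so the spread of these single libraries was taken from the other cells, and a difference between the groups cannot be told apart from 1 unusual library. For Pcdhgb1 the difference was 1.37434 log2 (SE 0.22, adjusted p = 0.0285), with SUS 1 at 9.03 CPM and the other 8 libraries at 16.1 to 22.1 CPM. For Ndufb4b the fitted difference was 10.8962 log2 (adjusted p = 0.000124). That value depends on how the 0 counts of SUS_LE 2 are treated and is no bound.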

How the results depend on the processing

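Of the 36 single genes and 4 list medians followed under the alternatives, none changed sign. Single members of the lists did: the epithelial list, with 47 of 47 below 0, had 2 members above 0 without SUS 1 and without SUS 3, and 1 without SUS_LE 1 and with the replicate block. The count of called genes, 27, was 107 in DESeq2 with or without independent filtering (26 of the 27 among them), 6 in limma voom, 280 with no filter on low counts, 1 with at least 1 CPM in all libraries, 55 without the robust step, 149 with no treatment group term, 4 with only SUS and SUS_LE, and 238 with log2 Ttr as a continuous term. RLE factors gave 26. Leaving out 1 library gave 2 to 158. Same-numbered libraries did not deviate together (r from −0.123, with 2 of 9 pairs above 0.1), so numbers were not taken as pairs, and a replicate block gave 61 (16 higher, 45 lower). Of 738 values of single genes under these alternatives, 176 lost the call and 35 gained one. Tmprss11a, Itpripl1 and Six3os1 kept it in 19 of 20, and Epn3 in 19 of 21. Malat1 kept it in 13 of 21 and Miat in 8.

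The interaction count, 2, was 13 in DESeq2 with independent filtering, where 1118 genes had an adjusted p, and 1 in voom, with the stricter filter and without the robust step. It was 103 with no filter, 3 with the replicate block, and 1 to 107 with 1 library left out (107 without SUS 2). It could not be fitted without SUS 1 or SUS_LE 2. The cause of these shifts was not tested. The epithelial median log2 was −1.32 without SUS 1, −3.34 without SUS_LE 2 and −1.0 over the 31 members with at least 1 CPM in all libraries. The meningeal median, 0.39, was 0.16 to 0.73 with 1 library left out and 0.15 with the replicate block, and that of abundant long noncoding RNAs, 0.13, was 0.21 with the block. Genes under about 1 CPM rest on few counts, and 3 poor libraries limit the precision of every value.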

Other observations

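Lists for interferon response, MHC class I, complement, heat shock, immediate early, glucocorticoid target and neuropeptide genes had medians between −0.11 and 0.06. Interferon response genes had 20 of 40 values above 0 and a median of 0.01. In edgeR 9 of the 40 had an unadjusted p under 0.05, beside 9.17% of all tested genes. Tgtp1 was the 1 member called in edgeR, beside 0.168% of all tested genes. The 4 members with the smallest p went both ways: Tgtp1 at −1.74 and Iigp1 at −0.79 log2, Isg15 at 1.36 and Mx2 at 1.17. MHC class I genes, which present antigen, had 16 of 19 values below 0 and a median of −0.11, and complement genes 10 of 17 above 0. Heat shock genes had 20 of 28 values below 0 and a median of −0.07. Hspa5, the chaperone of the endoplasmic reticulum, was at 166, 159 and 189 CPM in the poor and 188 to 217 CPM in the rich libraries (log2 −0.26, edgeR adjusted p = 0.216). Immediate early genes had a median of −0.02 over 31 members, glucocorticoid targets −0.07 over 21 and neuropeptides 0.01 over 20. Reactive astrocyte genes had a median of −0.04 over 28 members, oligodendrocyte precursor genes 0.03 over 15, border macrophage genes 0.28 over 12 (8 above 0) and neurogenesis genes 0.13 over 16 (14 above 0). edgeR, DESeq2 and limma voom called none of these last 4 lists, with 6, 4, 1 and 1 genes at an unadjusted p under 0.05 in edgeR.

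Lists for neighbouring tissue had medians near 0. The median was 0.02 for 20 striatal genes, −0.03 for 19 thalamic and habenular, −0.02 for 25 cortical and amygdalar and −0.04 for 15 subicular genes. Erythrocyte genes had 7 of 7 values above 0, beside 51.2% of all tested genes, with a median of 0.09. In edgeR 0 of the 7 had an unadjusted p under 0.05, and the smallest adjusted p was 0.826. In 0 of the 7 did each poor library lie above the rich libraries of its own group. Nuclear respiratory chain genes had a median of −0.01 over 74 members and mitochondrial transcripts 0.02 over 13. Among 22 secreted Wnt and BMP regulators the median was −0.07. Sfrp5 had 7 counts in the 3 poor and 151 in the 6 rich libraries (edgeR adjusted p = 0.432). The rich over poor ratio was 10.9 after allowing for library totals (95% interval 5.16 to 27.6, counting error only). All its poor values lay under the minimum of the filter on low counts, so it was tested only because the rich libraries were high. Lists that overlap the epithelial one gave medians of −0.92 over 16 ion and water transport genes and −0.76 over 15 secreted proteins.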
